A study of Rattus norvegicus with 120 samples.

Results

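Cyp24a1, Cyp27b1, Vdr, Kl, Slc34a1 and Slc34a3 were described in kidney and heart of ZSF1 rats, a strain whose obese animals lack a working leptin receptor. These 6 genes, of 30560 in the count tables, were chosen by symbol from earlier results on the kidney levels in the same libraries. Their kidney differences are therefore given as a description with no p-value. Which of them passed a threshold in the fit over all genes is stated, but nothing is read from it. Their identifiers in the files are ENSRNOG00000013062 (Cyp24a1), ENSRNOG00000046214 (Cyp27b1), ENSRNOG00000054420 (Vdr), ENSRNOG00000001092 (Kl), ENSRNOG00000015262 (Slc34a1) and ENSRNOG00000010451 (Slc34a3). RNA came from rats of 30 weeks, with 10 rats in each of 6 groups per organ. Study A held ZSF1 Lean rats on vehicle, ZSF1 Obese rats on vehicle and ZSF1 Obese rats on BT2, an inhibitor of the kinase BDK, which restrains branched-chain amino acid breakdown. Study B held ZSF1 Obese rats on vehicle, on empagliflozin, which blocks the glucose transporter SGLT2 of the proximal tubule, or on BT2 + Empagliflozin, called the combination here. Compounds were given in chow, their doses are not known here, and every study B group was obese, so that no lean control stood beside empagliflozin. The labels call each renal sample kidney, while the series text names both whole kidney and cortex and does not say which study was which.

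The proximal tubule makes the active hormone 1,25-dihydroxyvitamin D by the 1-alpha-hydroxylase Cyp27b1, and the 24-hydroxylase Cyp24a1 breaks the hormone and its precursor down. The hormone acts through the nuclear receptor Vdr, which raises Cyp24a1 transcription. FGF23 from bone, acting through FGF receptors with the coreceptor klotho (Kl), lowers Cyp27b1 and raises Cyp24a1, and together with parathyroid hormone it lowers phosphate uptake by the brush border transporters Slc34a1 (NaPi-IIa) and Slc34a3 (NaPi-IIc).

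The promoters of both phosphate transporters are shown first. Both genes had their lowest group mean under the combination, as did Cyp27b1 and, within 1 SD of study B vehicle, Kl. Windows of 300 bases, from 250 before to 50 after the annotated start, were taken from RefSeq (GRCr8), which gave one for 5 of the 6 genes and none for Cyp24a1. Each is written 5′ to 3′ on the gene's strand, and capitals mark the letters searched, on both strands.
Slc34a1, chr17:9238934-9239233, minus strand: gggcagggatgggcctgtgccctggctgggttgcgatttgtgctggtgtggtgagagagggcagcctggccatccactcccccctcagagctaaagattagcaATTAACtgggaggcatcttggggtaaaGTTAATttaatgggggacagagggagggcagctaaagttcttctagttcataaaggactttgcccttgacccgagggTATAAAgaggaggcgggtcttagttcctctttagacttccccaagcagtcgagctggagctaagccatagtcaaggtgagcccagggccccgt
Slc34a3, chr3:28447948-28448247, minus strand: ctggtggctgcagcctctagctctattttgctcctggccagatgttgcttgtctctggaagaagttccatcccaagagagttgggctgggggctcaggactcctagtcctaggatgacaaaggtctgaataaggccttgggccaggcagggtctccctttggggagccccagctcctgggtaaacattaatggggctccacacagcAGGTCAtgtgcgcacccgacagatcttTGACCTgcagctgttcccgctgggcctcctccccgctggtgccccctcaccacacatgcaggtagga
The Slc34a1 window held the HNF1 half-site letters GTTAAT from position -120 and their reverse complement ATTAAC from -147, counted from the start site, and a TATA box, TATAAA, from -43. Slc34a3 held the nuclear receptor half-site letters AGGTCA from -44 and their reverse complement TGACCT from -17. On either strand, GTTAAT was in 7.37% of 27457 such windows, AGGTCA in 15.7% and TATAAA in 14.3%. The Cyp27b1 window had the reverse complement TTTATA of the TATA letters from -49, and the windows of Vdr and Kl had none of these letters. These are matches of letters and not measured binding, and no matches overlapped.

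Levels are CPM, counts scaled to a library of 1000000 with trimmed-mean normalization factors. The depth was 10.1 M (M, 1000000 counts) in the median kidney library and at most 54.9 M, and 6.74 to 23.6 M in heart. A BT2 kidney with 22774 counts and a study B vehicle kidney with 776178 were left out of means and SDs, and the other 58 had at least 4.6 M. Transcripts of another tissue were seen in 5 other kidneys, among them lean replicate 8 (Myh4 of skeletal muscle at 10814 CPM, against a kidney median of 9.67) and combination replicates 1, 4 and 5 (Alb of liver at 95.9, 266 and 834 CPM, median 0.359). Marker genes of the proximal tubule were present in every kidney group, with the 12 marker genes summing to 5192 to 15690 CPM per library. In bulk tissue, fewer cells of a type and less RNA per cell cannot be told apart.

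**Figure D1:**
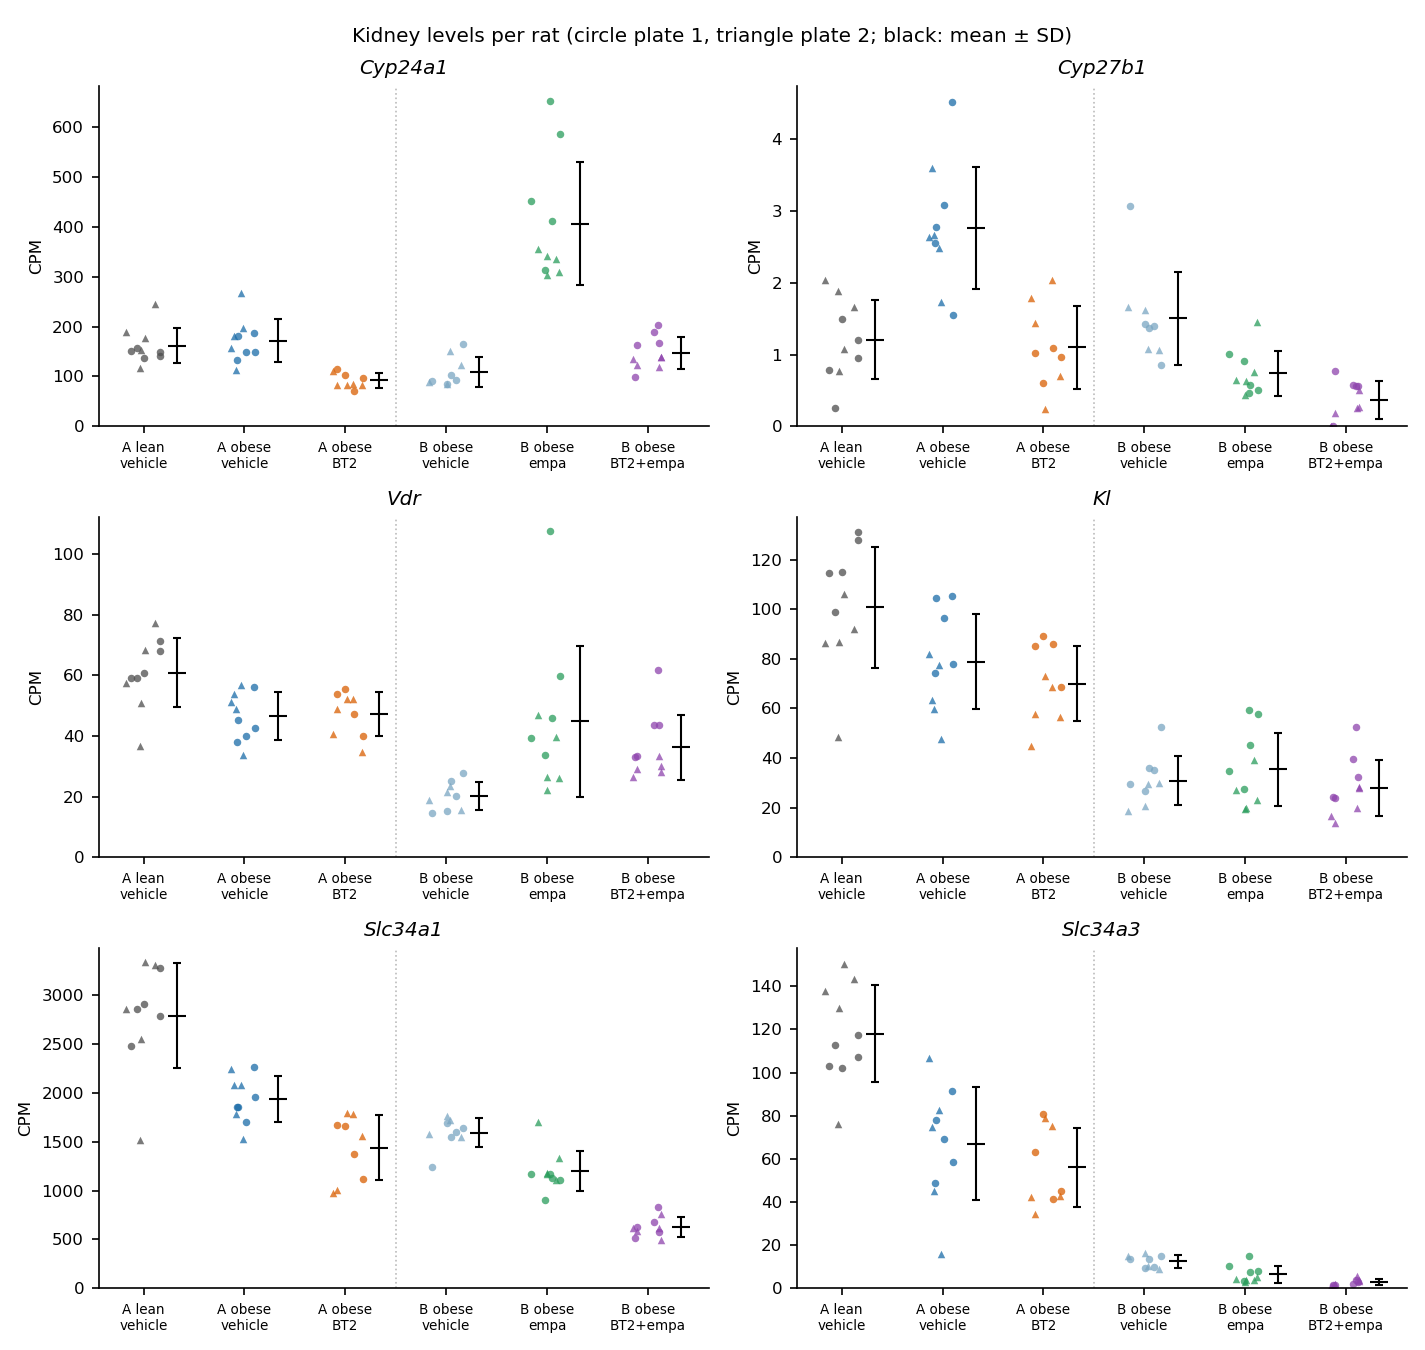
Kidney levels of the 6 genes, in CPM on linear axes, for each rat of the 6 groups (circles plate 1, triangles plate 2), with the mean and SD in black. The 10 empagliflozin kidneys lie between 304 and 654 CPM for Cyp24a1, above every other kidney plotted, and the combination kidneys lie lowest for Slc34a1, at 492.9 to 832 CPM.

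Cyp24a1, the hormone-degrading enzyme, had its highest levels under empagliflozin alone. Study B vehicle kidneys had 84.0, 92.4 and 165 CPM as lowest, median and highest values (109 ± 30.5, SD, n = 9). Empagliflozin kidneys had 304, 349 and 654 CPM (407 ± 123, n = 10), and combination kidneys 98.8, 139 and 204 CPM (147 ± 32.6, n = 10). All empagliflozin kidneys were therefore above the highest vehicle and the highest combination kidney, and the combination overlapped vehicle. On the log2 scale empagliflozin was higher than vehicle by 1.95 ± 0.18 (SE), the combination was higher than vehicle by 0.48 ± 0.16, and the combination differed from empagliflozin by −1.46 ± 0.12; these comparisons share groups and are given side by side. The empagliflozin difference was 2.18 on plate 1 and 1.68 on plate 2. In study A, lean kidneys had 118, 152 and 246 CPM (162 ± 35.9, n = 10), obese vehicle kidneys 113, 169 and 268 (172 ± 43.0, n = 10), and BT2 kidneys 70.0, 84.6 and 115 (92.0 ± 14.9, n = 9). Lean and obese ranges overlapped almost whole, with a log2 difference of 0.09 ± 0.13. BT2 kidneys met the obese vehicle range only at 113 to 115 CPM, and differed from vehicle by −0.91 ± 0.14, with −0.75 on plate 1 and −1.04 on plate 2. Ordered by mean, empagliflozin came first and apart from the next group, then obese vehicle of study A, lean and combination kidneys, each within 1 SD of the next, then study B vehicle and BT2, also within 1 SD of each other.

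Cyp27b1, which makes the active hormone, was read at 0 to 79 counts per kidney, so its values carry large counting error. Obese vehicle kidneys of study A had 1.55, 2.65 and 4.52 CPM (2.76 ± 0.853, n = 10). Lean kidneys had 0.253, 1.14 and 2.03 CPM (1.21 ± 0.556, n = 10), and BT2 kidneys 0.243, 1.03 and 2.04 (1.10 ± 0.574, n = 9). Every obese vehicle kidney was above the lean median, and 8 of 10 were above the highest lean kidney. The log2 difference of obese from lean was 1.14 ± 0.25, with 1.65 on plate 1 and 0.77 on plate 2, and that of BT2 from obese vehicle was −1.29 ± 0.27, with −1.62 and −1.02. Both use the same obese vehicle kidneys. In study B, vehicle kidneys had 0.857, 1.39 and 3.07 CPM (1.504 ± 0.643, n = 9), empagliflozin kidneys 0.431, 0.641 and 1.45 (0.739 ± 0.312, n = 10) and combination kidneys 0, 0.386 and 0.777 (0.368 ± 0.265, n = 10). Vehicle and combination ranges did not overlap. The 2 combination kidneys without a count could have held up to 0.369 and 0.241 CPM, the levels that 3 counts would give. Empagliflozin differed from vehicle by −1.06 ± 0.26 on the log2 scale, and the combination, where the gene was below the count filter, was not fitted. The authors' deposited table gives −1.93 ± 0.41 for the combination against vehicle, from 19 libraries, without the vehicle library of 776178 counts.

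Vdr, the hormone's receptor, was lowest in study B vehicle kidneys and higher there under either treatment. Vehicle kidneys had 14.5, 20.2 and 27.6 CPM (20.3 ± 4.65, n = 9), empagliflozin kidneys 22.1, 39.6 and 108 (44.8 ± 24.8, n = 10), and combination kidneys 26.6, 33.2 and 61.8 (36.2 ± 10.8, n = 10). The ranges overlapped in both cases, and empagliflozin replicate 5 and combination replicate 4 stood above the rest of their groups. Empagliflozin differed from vehicle by 1.15 ± 0.21 on the log2 scale, or 0.95 ± 0.16 without replicate 5, with 1.49 on plate 1 and 0.74 on plate 2. The combination differed from vehicle by 0.85 ± 0.14 (1.07 and 0.61 by plate) and from empagliflozin by −0.29 ± 0.18. In study A, lean kidneys had 36.8, 60.03 and 77.4 CPM (60.9 ± 11.4, n = 10), obese vehicle 33.6, 47.0 and 56.7 (46.6 ± 7.999, n = 10) and BT2 34.8, 48.7 and 55.6 (47.2 ± 7.19, n = 9). Each obese vehicle kidney was below the lean median, for a log2 difference of −0.38 ± 0.12 (−0.51 and −0.24 by plate). BT2 and obese vehicle kidneys covered nearly the same range, with a difference of 0.02 ± 0.11.

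Kl, the FGF23 coreceptor of the distal and proximal tubule, varied more between the studies than between treatments. Lean kidneys had 48.6, 102 and 131 CPM (101 ± 24.3, n = 10), obese vehicle 47.5, 77.7 and 105 (78.9 ± 19.1, n = 10) and BT2 44.8, 68.5 and 89.4 (69.9 ± 15.2, n = 9). Study B vehicle kidneys had 18.6, 29.5 and 52.4 CPM (31.0 ± 9.86, n = 9), empagliflozin 19.5, 31.2 and 59.6 (35.4 ± 14.8, n = 10) and combination 13.9, 26.1 and 52.6 (28.0 ± 11.4, n = 10). Within each study the neighbours in order of mean were within 1 SD of each other. Log2 differences were −0.34 ± 0.12 for obese from lean, −0.15 ± 0.11 for BT2 from vehicle, 0.24 ± 0.17 for empagliflozin and −0.11 ± 0.17 for the combination from vehicle, and −0.35 ± 0.17 for the combination from empagliflozin. The obese from lean value was −0.34 on each plate, and −0.30 ± 0.12 without obese vehicle replicate 6, the lowest of its group in Vdr, Kl, Slc34a1 and Slc34a3.

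Slc34a1, the main renal phosphate transporter, was lowest under the combination, with empagliflozin kidneys between it and vehicle. Vehicle kidneys had 1244, 1599 and 1764 CPM (1595 ± 152, n = 9). Empagliflozin kidneys had 909, 1172 and 1701 CPM (1199 ± 205, n = 10), and combination kidneys 492.9, 616 and 832 (631 ± 104, n = 10). The combination range lay wholly below both others, while empagliflozin and vehicle overlapped. The log2 difference from vehicle was −0.42 ± 0.08 for empagliflozin (−0.49 and −0.35 by plate) and −1.35 ± 0.09 for the combination (−1.28 and −1.43), and the combination was −0.94 ± 0.10 from empagliflozin (−0.79 and −1.09). In study A, lean kidneys had 1522, 2861 and 3341 CPM (2791 ± 537, n = 10), obese vehicle 1531, 1908 and 2269 (1935 ± 236, n = 10) and BT2 979, 1556 and 1794 (1439 ± 330, n = 9). All obese vehicle kidneys were below the lean median, and no lean kidney was within the obese range: 9 were above it, and replicate 8, which held muscle transcripts, was just below it. Obese differed from lean by −0.52 ± 0.11 (−0.56 and −0.48 by plate). BT2 differed from obese vehicle by −0.52 ± 0.20 (−0.62 and −0.44), or −0.42 ± 0.12 without the 22774-count library.

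Slc34a3, the second brush border phosphate transporter, had lower values again under the combination. Study B vehicle kidneys had 9.08, 13.4 and 16.4 CPM (12.4 ± 2.81, n = 9), empagliflozin 3.13, 4.69 and 15.1 (6.47 ± 3.86, n = 10) and combination 1.13, 2.55 and 5.84 (2.79 ± 1.47, n = 10). Combination kidneys were all below the lowest vehicle kidney, and empagliflozin kidneys reached across both. Differences on the log2 scale were −1.03 ± 0.24 for empagliflozin from vehicle, −2.22 ± 0.23 for the combination from vehicle and −1.14 ± 0.32 for the combination from empagliflozin. The empagliflozin group differed by plate, with 8.91 ± 4.26 CPM on plate 1 and 4.04 ± 0.752 on plate 2 (n = 5 each), where vehicle had 12.3 ± 2.44 (n = 5) and 12.7 ± 3.60 (n = 4). Within plates, empagliflozin was −0.45 ± 0.30 and −1.74 ± 0.22 from vehicle, and the combination −1.89 ± 0.37 and −0.35 ± 0.38 from empagliflozin, whereas the combination was −2.33 and −2.11 from vehicle. In study A, lean kidneys had 76.1, 115 and 150 CPM (118 ± 22.5, n = 10), obese vehicle 15.8, 71.9 and 107 (67.1 ± 26.1, n = 10) and BT2 34.5, 45.0 and 80.9 (56.0 ± 18.5, n = 9). Obese kidneys overlapped lean ones at −0.80 ± 0.22 (−0.64 and −0.96 by plate), and BT2 overlapped obese vehicle at −0.25 ± 0.24.

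The vehicle-treated obese kidneys of both studies had unlike levels of several of these genes. Slc34a3 was 67.1 CPM in study A and 12.4 in study B; one study A kidney, obese vehicle replicate 6 at 15.8 CPM, fell within the study B range of up to 16.4. Kl was 78.9 and 31.0 CPM, and Vdr 46.6 and 20.3. Podocyte markers, which mark glomeruli of the cortex, summed to a median of 295 CPM in study A and 98.8 in study B vehicle kidneys, and the markers of the distal convoluted and connecting tubule to 1028 and 442. Principal cell markers went the other way, at 369 and 884 CPM, as did intercalated cell markers, at 416 and 499. Proximal tubule markers had 8946 and 7871 CPM, thick ascending limb markers 5998 and 5738, and inner medulla markers 1734 and 1640. The inner medulla list holds Aqp1, which is also on the proximal tubule list. Its sum is therefore not a measure of the inner medulla apart from the proximal tubule. Study and dissection cannot be told apart here, so treatments were compared within a study.

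**Figure D2:**
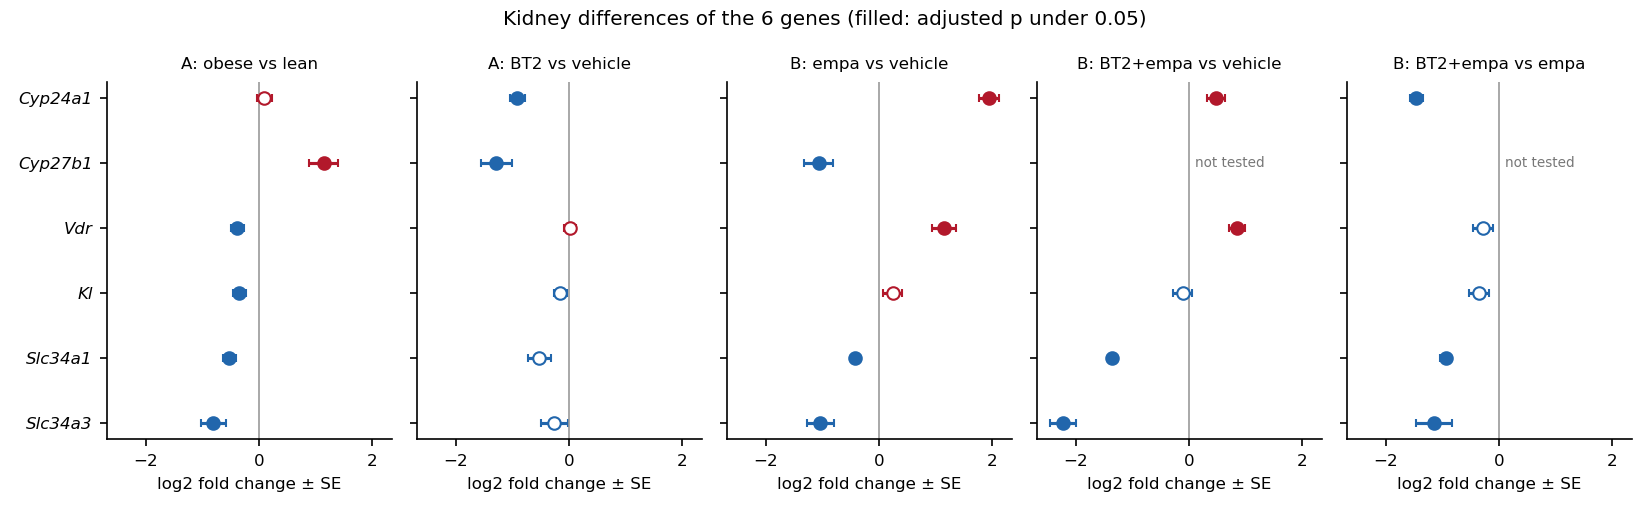
Log2 fold change with its SE for the 6 genes in the 5 kidney comparisons, red for higher and blue for lower in the first-named group, filled where the adjusted p was under 0.05 in the fit over all genes. The fill is a description, because these contrasts led to the choice of the genes. Empagliflozin shows the longest step up, 1.95 for Cyp24a1, and the combination against vehicle the longest step down, −2.22 for Slc34a3.

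Because these contrasts led to the choice of the genes, the number past the threshold is given beside the share of all genes past it and nothing is read from it. At an adjusted p under 0.05 (edgeR quasi-likelihood test, Benjamini-Hochberg), 5 of 6 passed between obese and lean kidneys, where 32% of all genes passed, all but Cyp24a1. For BT2 it was 2 of 6, Cyp24a1 and Cyp27b1, with 5.67% of all genes. For empagliflozin it was 5 of 6, all but Kl, with 1.06% of all genes. For the combination 4 of the 5 fitted passed against vehicle (32.1% of all genes), all but Kl, and 3 of 5 against empagliflozin (31.7%), Cyp24a1, Slc34a1 and Slc34a3. Many of these calls also hung on the setting. For empagliflozin, Cyp24a1 passed in every fit made, but Slc34a1, Slc34a3 and Cyp27b1 did not pass without the plate term, Slc34a1 and Cyp27b1 not with all 6 groups in one fit, Slc34a1 not in the original run alone and Cyp27b1 not without the count filter. Vdr and Slc34a1 did not pass on either plate alone, and Slc34a3 and Cyp27b1 not on plate 1 alone. Between obese and lean kidneys, none of the 5 passed on plate 2 alone, Kl did not pass without the plate term, and neither Kl nor Vdr in the fit of all 6 groups. For BT2, Cyp24a1 did not pass on plate 1 alone and Cyp27b1 not on plate 2 alone. For the combination, Cyp24a1 did not pass against vehicle on either plate alone, nor Slc34a3 against empagliflozin on plate 2 alone. Single libraries decided some of the calls. Without the 776178-count vehicle library, Slc34a3 (−0.99 ± 0.23) and Cyp27b1 (−1.07 ± 0.26) no longer passed for empagliflozin, and neither did Slc34a3 without vehicle replicate 3 (−1.06 ± 0.25) or Cyp27b1 without empagliflozin replicate 5 (−0.99 ± 0.26). Without combination replicates 1, 4, 5 and 7, which held transcripts of another tissue, Slc34a3 did not pass against empagliflozin (−0.79 ± 0.38). Slc34a1 passed for BT2 once the 22774-count library was left out, with DESeq2 and with all 6 groups in one fit, and Kl did not pass between obese and lean without obese vehicle replicate 6.

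Marker lists of tubule segments and of injury moved with some of these groups. The 7 tubule injury markers, among them Havcr1 and Lcn2, summed to a median of 497 CPM (396 to 3829) in lean kidneys, 5681 (3902 to 8817) in obese vehicle, 5040 in BT2, 8392 (5577 to 12239) in study B vehicle, 10035 (7037 to 13839) in empagliflozin and 4804 (3090 to 5866) in combination kidneys. Krt20 had a median of 0 in both vehicle groups of study A. All 6 tested injury markers rose in obese kidneys and fell under the combination against vehicle. Markers are counted as rising or falling at an edgeR adjusted p under 0.05. Of all genes tested, 16.9% rose and 15.2% fell in obese kidneys, and 2.26% rose and 3.41% fell under BT2. The shares were 17.3% and 14.8% under the combination against vehicle. The 12 proximal tubule markers summed to a median of 14852 CPM in lean, 8946 in obese vehicle, 9355 in BT2, 7871 in study B vehicle, 7604 in empagliflozin and 11437 in combination kidneys, and no proximal marker had a median of 0. Of these, 7 fell in obese kidneys and none rose. Under the combination against vehicle 4 rose and 6 fell, while Slc34a1 and Slc34a3 were lower in the same kidneys. Macrophage markers had medians of 372 CPM in lean, 932 in obese vehicle, 787 in study B vehicle and 390 in combination kidneys, with 3 of 4 rising in obese kidneys and 3 of 4 falling under the combination. Of 5 intercalated cell markers tested, 4 fell in obese kidneys, 4 rose under BT2 (median log2 difference 0.51) and 5 rose under the combination against vehicle. Principal cell markers rose in 3 of 5 under BT2 (median 0.51) and in 3 of 5 under the combination against vehicle. Cyp24a1 and Cyp27b1 were lower in the same BT2 kidneys. The part of these cells in the levels of the 6 genes was not tested.

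Other genes of the pathway were read from 4 lists with 45 genes found. These lists, like the marker lists, were chosen with earlier results of these data known. Their counts and p-values are therefore not those of lists set beforehand. Between obese and lean kidneys, 6 of 41 tested rose and 16 fell, with a median log2 difference of −0.20 beside −0.02 over all genes and 32% of all genes called. Among phosphate transporters and their scaffolds 2 of 13 rose and 8 fell, among vitamin D uptake and activation genes 4 of 11 fell and none rose, in the FGF23 and parathyroid hormone list 1 of 9 rose and 4 fell, and in calcium transport 3 of 8 rose. Slc34a2 (NaPi-IIb), the phosphate transporter best known from intestine and lung, rose from 60.9 ± 9.56 to 205 ± 51.5 CPM (n = 10 each; log2 1.75 ± 0.13, edgeR adjusted p = 3.27e-08), higher than the lean median in 10 of 10. Pthlh, which encodes the parathyroid hormone-related protein, rose by 2.49 ± 0.33 (0.339 to 2.20 CPM, edgeR adjusted p = 9.88e-06). Both epithelial calcium channels rose, Trpv6 from 0.891 to 6.68 CPM (2.78 ± 0.43, edgeR adjusted p = 4.53e-05) and Trpv5 from 14.3 to 22.6 (0.67 ± 0.14, edgeR adjusted p = 0.00075). Gc, the vitamin D binding protein, fell from 62.6 ± 13.3 to 30.1 ± 6.02 CPM (−1.05 ± 0.15, edgeR adjusted p = 1.67e-05). Lrp2 (megalin), which takes up that protein from the filtrate, fell from 3254 to 2135 CPM (−0.60 ± 0.13, edgeR adjusted p = 0.000942). Alpl, the tissue-nonspecific alkaline phosphatase, fell by 0.73 ± 0.12 on the log2 scale (edgeR adjusted p = 0.000112), and Pdzd3, a scaffold of the brush border, by 0.54 ± 0.11 (edgeR adjusted p = 0.000618). Each of the 8 named genes lay on the same side of the lean median in 10 of 10 obese kidneys.

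Under BT2, 2 of 41 pathway genes fell and none rose, where 5.67% of all genes were called. Gc fell further, from 30.1 ± 6.02 to 10.9 ± 2.59 CPM (−1.47 ± 0.14, edgeR adjusted p = 3.41e-07, lower than the vehicle median in 9 of 9). Pdia3, a disulfide isomerase also described as a membrane vitamin D binding protein, fell from 457 ± 52.5 to 362 ± 33.2 CPM (−0.34 ± 0.08, edgeR adjusted p = 0.0149, 9 of 9), and did not pass on either plate alone or in the original run alone. Under empagliflozin alone, 1 of 40 fell and none rose, with 1.06% of all genes called. That gene was Pth1r, the parathyroid hormone receptor, at 150 ± 20.4 CPM against 190 ± 20.2 in vehicle (−0.35 ± 0.07, edgeR adjusted p = 0.0251, lower in 9 of 10), and it did not pass without the plate term, on either plate alone or in the original run alone.

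Under the combination against vehicle, 16 of 40 pathway genes rose and 7 fell (median 0.19, beside 0.01 over all genes, with 32.1% called). Of 13 phosphate genes 7 rose and none fell. Stc2 and Stc1, which encode stanniocalcins, secreted glycoproteins first known as calcium-lowering hormones of fish, rose from 3.14 ± 2.13 to 15.5 ± 4.44 CPM (2.28 ± 0.31, edgeR adjusted p = 6.01e-06) and from 8.63 ± 5.61 to 21.9 ± 8.59 CPM (1.36 ± 0.27, edgeR adjusted p = 0.000518). The scaffold gene Pdzd3 rose by 0.46 ± 0.07 (edgeR adjusted p = 2.55e-05), Cubn (cubilin), the partner of megalin, by 0.46 ± 0.08 (edgeR adjusted p = 0.000125), the phosphate transporter Slc20a1 by 0.32 ± 0.07 (edgeR adjusted p = 0.00085) and the FGF receptor Fgfr3 by 0.36 ± 0.08 (edgeR adjusted p = 0.0015). Trpv6 fell from 15.6 ± 8.02 to 4.69 ± 1.339 CPM (−1.71 ± 0.25, edgeR adjusted p = 2.12e-05), and Pdia3 fell by 0.49 ± 0.06 (edgeR adjusted p = 7.52e-07). All 8 lay on one side of the vehicle median in 10 of 10 combination kidneys.

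Against empagliflozin alone, with the same combination kidneys, 13 of 40 rose and 5 fell (median 0.11, beside 0.01 over all genes, with 31.7% called), among phosphate genes 9 of 13 and 1. Slc34a2 fell from 328 ± 44.4 to 235 ± 59.7 CPM (−0.51 ± 0.11, edgeR adjusted p = 0.000857). The scaffolds Slc9a3r1 (NHERF1), from 347 ± 73.8 to 461 ± 51.6 CPM (0.41 ± 0.09, edgeR adjusted p = 0.00128), Pdzd3 (0.59 ± 0.08, edgeR adjusted p = 2.24e-05) and Ezr, ezrin (0.23 ± 0.05, edgeR adjusted p = 0.00176), rose. Stc2 rose by 1.94 ± 0.31 (edgeR adjusted p = 6.35e-05) and Slc20a1 by 0.29 ± 0.07 (edgeR adjusted p = 0.00235). Trpv6 fell by 1.501 ± 0.17 (edgeR adjusted p = 1.92e-06) and Pdia3 by 0.49 ± 0.05 (edgeR adjusted p = 4.42e-07). Each of these was on one side of the empagliflozin median in 10 of 10.

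**Figure D3:**
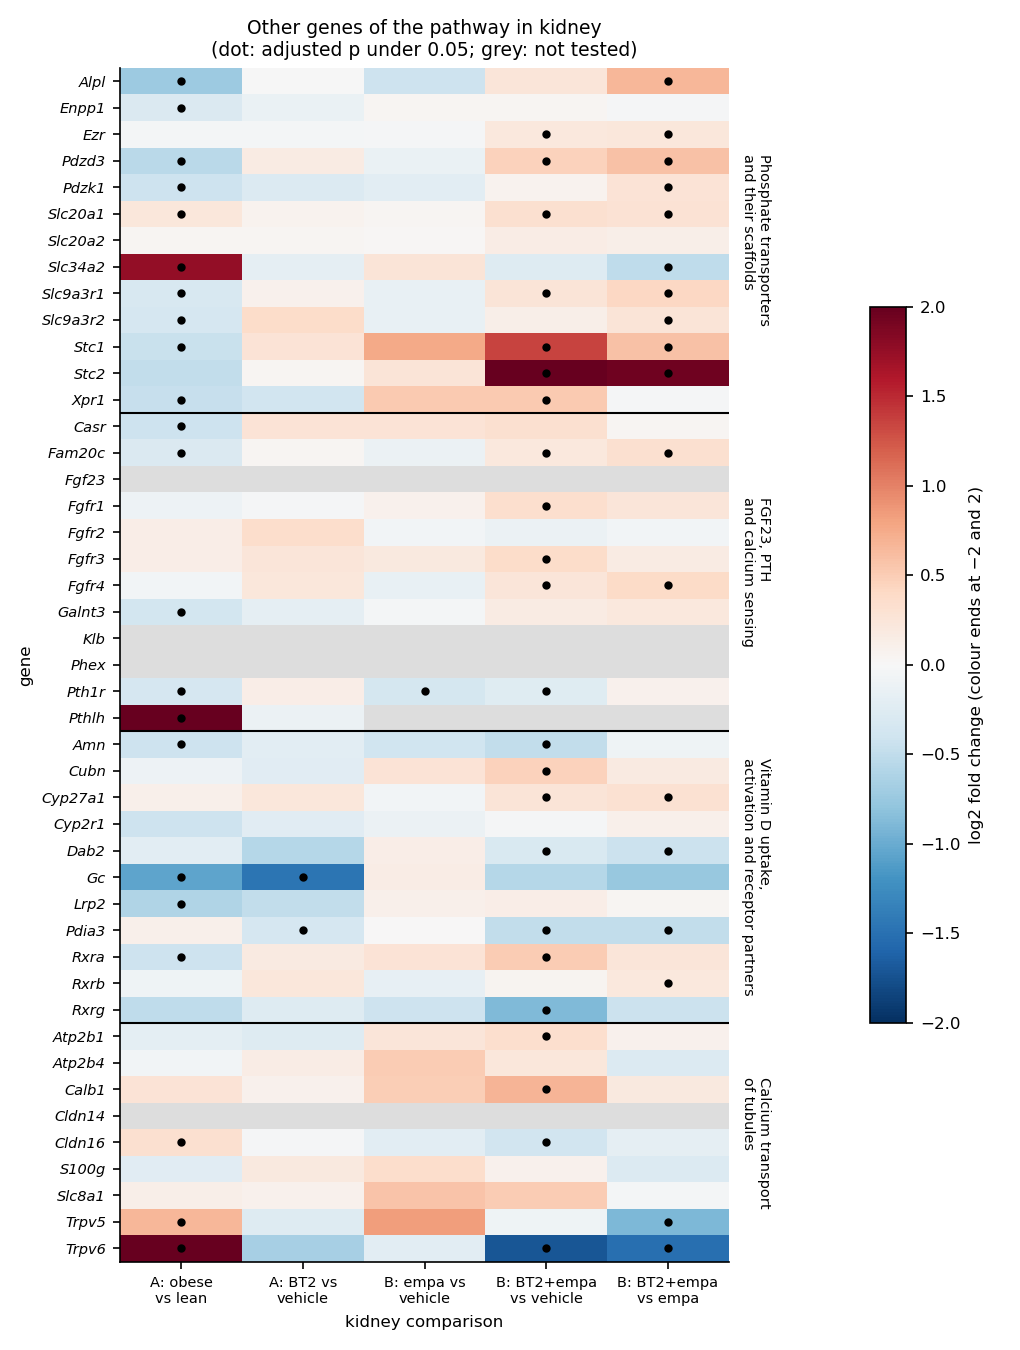
Log2 fold change of the 45 other pathway genes in the 5 kidney comparisons, grouped by list, with a dot where the edgeR adjusted p was under 0.05 and grey where a gene was below the count filter. Dots fill the obese and combination columns, with 22 and 23 genes, and are sparse for BT2, with 2, and empagliflozin, with 1.

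Rats of one group also differed from each other, and this variation, which did not enter the choice of the genes, was tested. The mean of each group and plate was removed from log2 CPM of 58 kidneys, libraries were permuted within group and plate 100000 times, and p-values were adjusted over 39 relations (15 gene pairs, and each gene against 4 marker lists). Of the 15 pairs 9 passed, all positive and none with Cyp27b1. Vdr and Kl were the most alike (r = 0.73, rho = 0.74, permutation p = 1e-05, the smallest these permutations can give, adjusted p = 4.87e-05), with r from 0.57 to 0.88 in the 6 groups and 0.71 without the 2 libraries farthest in Vdr. Vdr also varied with Slc34a3 (r = 0.60, rho = 0.61, permutation adjusted p = 4.87e-05) and with Slc34a1 (r = 0.57, rho = 0.59, permutation adjusted p = 4.87e-05), positive in 6 of 6 groups each. Kl with Slc34a3 gave r = 0.59 (rho = 0.58, permutation adjusted p = 0.000234) and with Slc34a1 r = 0.54 (rho = 0.52, permutation adjusted p = 0.00033). Both transporters varied together at r = 0.53 (rho = 0.58, permutation adjusted p = 0.00013), from −0.11 to 0.97 by group. Cyp24a1 went with Kl (r = 0.57, rho = 0.53, permutation adjusted p = 0.000248) and with Vdr (r = 0.56, rho = 0.50, permutation adjusted p = 0.000474), and more weakly with Slc34a1 (r = 0.35, rho = 0.31, permutation adjusted p = 0.0268). By group, r ran from −0.43 to 0.93 for Cyp24a1 with Kl and from −0.14 to 0.81 for Cyp24a1 with Slc34a1. It ran from −0.14 to 0.92 for Kl with Slc34a3, and each of these pairs was positive in 5 of 6 groups. Leaving out the 5 kidneys with transcripts of another tissue, r of Cyp24a1 and Slc34a1 was 0.17 and no longer passed. Without the 2 farthest libraries these 8 r values lay between 0.31 and 0.60. Vdr and Kl gave 0.70 without the 5 kidneys with transcripts of another tissue. For Cyp27b1, r with the other 5 genes was 0.00 to 0.24, with permutation adjusted p from 0.192 to 0.989.

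Segment markers varied between the same rats, and their values stand beside those of the genes. The mean of the proximal tubule list went with Slc34a1 (r = 0.75), Slc34a3 (0.71), Kl (0.68) and Vdr (0.61), each with a permutation adjusted p of 4.87e-05, and with Cyp24a1 (0.49, permutation adjusted p = 0.0078), and r with Cyp27b1 was −0.01. The distal convoluted and connecting tubule list went with Kl (0.75, permutation adjusted p = 4.87e-05), Vdr (0.60, permutation adjusted p = 0.00026) and Cyp24a1 (0.40, permutation adjusted p = 0.0108), while Slc34a1 had 0.18. That list holds Calb1 and Trpv5, which are also on the calcium transport list of the pathway. It is therefore not a measure of the segment apart from the pathway. Tubule injury markers went the other way, with −0.53 for Slc34a1 (permutation adjusted p = 0.0098), −0.46 for Kl (permutation adjusted p = 0.00299) and −0.36 for Vdr (permutation adjusted p = 0.0241). Without the 2 libraries farthest in the gene, these were −0.34 for Slc34a1, −0.33 for Kl and −0.38 for Vdr. Relations to marker lists were not checked without the kidneys that held transcripts of another tissue. No relation to thick ascending limb markers passed. How far the share of tubule segments in each tissue piece sets the pairwise values was not tested.

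**Figure D4:**
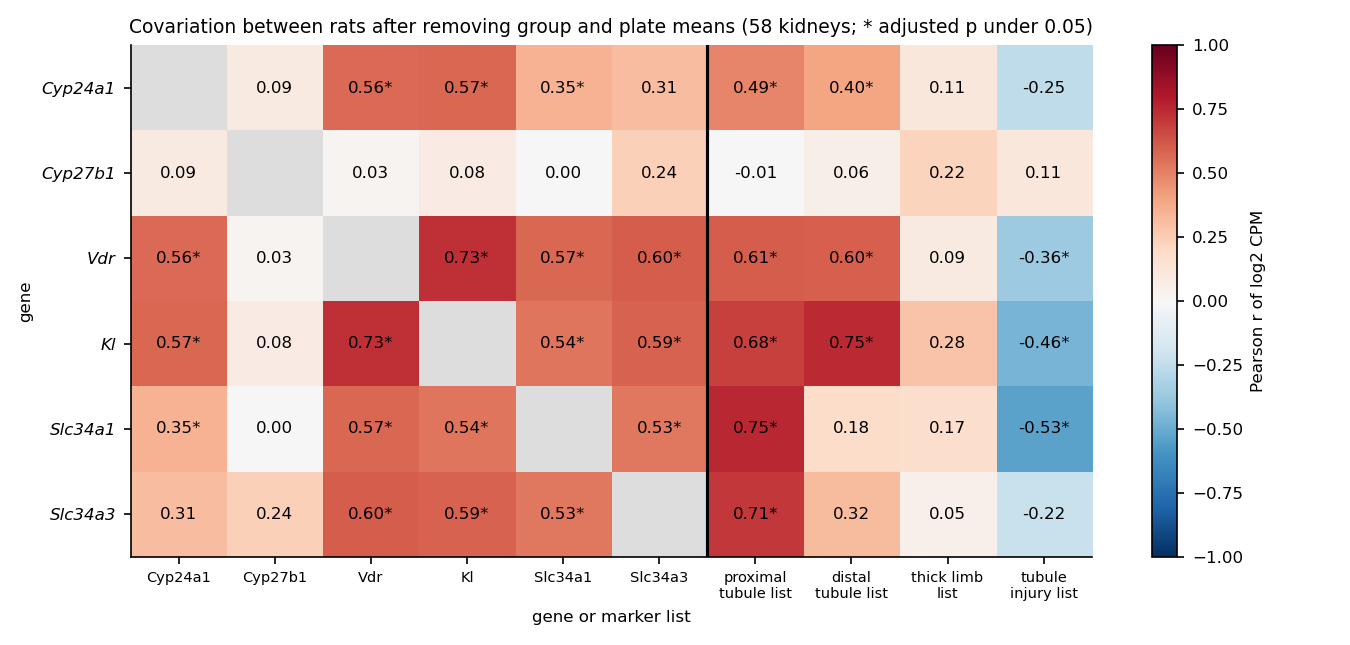
Pearson r of log2 CPM between the 6 genes, and of each with the mean of 4 marker lists, over 58 kidneys after removing group and plate means. Asterisks mark a permutation adjusted p under 0.05 over 39 relations. The Cyp27b1 row has none, and the Vdr and Kl rows reach 0.73 with each other.

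Genes whose levels were most alike to each of the 6 were ranked by r of log2 CPM over the 58 kidneys among 10944 genes of at least 5 CPM. Because the studies form separate clusters, r is given within study A and study B (29 kidneys each) as a description. For Slc34a1 the nearest were Rdh16 (0.90 and 0.82), Dpp7 (0.85 and 0.84) and Trpv1 (0.87 and 0.90). For Slc34a3 they were Gpx3 (0.96 and 0.90), a glutathione peroxidase secreted by the proximal tubule, Dusp15 (0.93 and 0.77) and Epb41l3 (0.86 and 0.86). Kl was nearest Slc43a2 (0.90 and 0.87), Slit2 (0.86 and 0.87) and Adcy1 (0.85 and 0.85), and Vdr nearest Cnnm2, a magnesium-handling protein of the distal tubule (0.83 and 0.79), Slc12a3, the thiazide-sensitive cotransporter (0.59 and 0.80), and Glyr1 (0.78 and 0.73). Cyp24a1 had Rnf183 (0.82 and 0.71), Apoc2 (−0.13 and 0.82) and Sectm1b (0.39 and 0.70), with opposite signs in the studies for Apoc2. Cyp27b1 had Angptl7 (0.68 and 0.66), F3 (0.72 and 0.60) and Gnl3 (0.50 and 0.68). Points within a study share treatments, plates and tissue composition.

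In heart, which was not used to choose the genes, only Vdr passed the count filter, and it was lower in obese than in lean rats. Lean hearts had 1.18, 2.38 and 3.21 CPM as lowest, median and highest values (2.24 ± 0.656, n = 10), and obese vehicle hearts 0.258, 0.918 and 1.76 (0.904 ± 0.421, n = 10). All 10 obese hearts were below the lean median and 8 were below the lowest lean heart. Vdr fell by 1.31 ± 0.25 on the log2 scale (edgeR adjusted p = 0.00173), 1 of 1 gene tested, where 5.36% of all genes were called. These levels rest on 17 to 52 counts per lean and 3 to 19 per obese heart. The difference was −1.36 on plate 1 (edgeR adjusted p = 0.00361) and −1.27 ± 0.45 on plate 2, where it did not pass (edgeR adjusted p = 0.46). Lean heart replicate 8 held kidney transcripts, with Slc34a1 at 30.3 CPM and Cyp24a1 at 2.96, and without it Vdr was −1.26 ± 0.25 (edgeR adjusted p = 0.00353). The authors' deposited table gives −1.22 ± 0.26 with an adjusted p of 1.57e-05. Deposited values can differ in size from those fitted here. For Vdr in BT2 against vehicle hearts the deposited value is −0.0016 ± 0.034, where the fit here gave −0.14 ± 0.29.

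No treatment difference of Vdr passed in heart. BT2 hearts had 0.296, 0.735 and 1.40 CPM (0.802 ± 0.345, n = 10; log2 −0.14 ± 0.29, edgeR adjusted p = 0.977), with 0.0558% of all genes called. Study B vehicle hearts had 0.457, 0.984 and 1.96 CPM (1.09 ± 0.474, n = 10), empagliflozin hearts 0.829, 1.22 and 2.20 (1.33 ± 0.417, n = 10) and combination hearts 0.763, 1.36 and 2.17 (1.44 ± 0.495, n = 10), overlapping throughout. The difference from vehicle was 0.31 ± 0.22 for empagliflozin (edgeR adjusted p = 0.718; 0.107% of all genes called) and 0.45 ± 0.24 for the combination (edgeR adjusted p = 0.312; 5.13% called), and 0.14 ± 0.22 between the combination and empagliflozin (edgeR adjusted p = 0.927; 0.0249% called). In kidney, where the values are a description, obese rats differed from lean by −0.38 in Vdr, and whether the organs differ was not tested. The other 5 genes were near 0 in heart. Cyp24a1 had a median of 0 in each group and Slc34a3 had no count in any of the 50 obese hearts, while Kl medians were 0.0869 to 0.231 CPM. Of the pathway genes in heart, 1 of 24 rose and 1 fell between obese and lean rats, Ezr by 0.64 ± 0.08 (29.8 to 46.3 CPM, edgeR adjusted p = 2.07e-05) and Fgfr2, a receptor of the FGF family, from 2.27 to 1.10 CPM (−1.02 ± 0.21, edgeR adjusted p = 0.00425). Slc20a1 rose under the combination against vehicle (0.22 ± 0.05, edgeR adjusted p = 0.0215, higher in 10 of 10), and no listed gene passed in the other 3 heart comparisons.

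**Figure D5:**
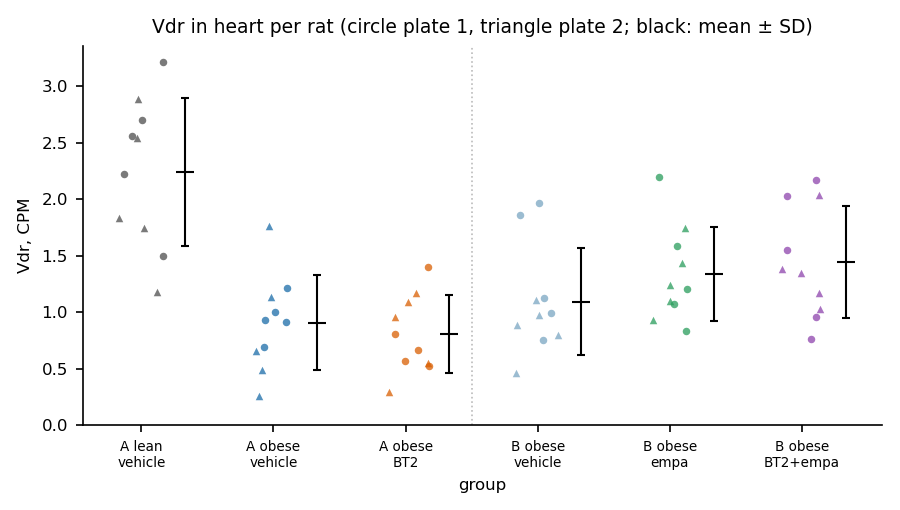
Vdr in heart, in CPM, for each rat of the 6 groups (circles plate 1, triangles plate 2), with the mean and SD in black. Lean hearts lie at 1.18 to 3.21 CPM and obese vehicle hearts of study A at 0.258 to 1.76, and the 3 study B groups overlap.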

How the data were processed

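Stranded libraries of poly-A RNA were made from 60 kidneys and 60 hearts, in 12 groups of 10 rats. By the labels' plate names, plate 1 carried replicates 1 to 5 and plate 2 the others. Gene tables deposited by run give expected counts, estimated per gene without normalization, of which 6.85% are not whole. The authors' comparison tables give signal (their counts after scaling per library), log2 fold changes with SE, p-values and adjusted p-values. In the submitters' processing notes stand build mRatBN7.2 and STAR 2.7.3a, Salmon 1.5.2, Picard, FastQC 0.11.9, MultiQC 1.11 and DESeq2 1.34.0. Scaled counts followed the sum of both runs, within 1%, in 56 of 56 columns checked, so both runs of the 43 libraries with a repeat were summed, then rounded. Of the count columns 163 were used and 82, matching no sample here, were not.

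Each pair of groups was fitted alone in R 4.3.3 with edgeR 4.0.16 (filterByExpr, TMM, trended dispersion, quasi-likelihood F test, plate as covariate), with Benjamini-Hochberg adjustment over all genes. Means and SDs leave out 2 kidney libraries under 1000000 counts, and fold changes, their SEs and tests keep them. The SE of an edgeR log2 fold change was taken as its absolute size divided by the square root of the F statistic. The 6 genes and all lists were chosen with earlier results of these data known. Named pathway genes are those called, up to 8 per comparison with the smallest adjusted p, and for likeness the 3 nearest genes. Slc17a1 and Cldn2 were not analysed here. Doubted libraries are those 2, the 5 kidneys with over 100 times the kidney median of Actc1 or Alb, and 11 hearts with over 5 times the heart median of Myl7, mostly an atrial gene, or 100 times that of Myh4. Lean heart replicate 8 does not meet that rule and was left out separately. Scripts were tested on simulated data. Other settings tried were DESeq2 1.42.0 (Wald test), its size factors in edgeR, all genes without the filter, a fit lacking the plate, a block for the replicate number, single plates, 1 fit over 6 groups, the first run only, and omission of doubted libraries. Leaving out single libraries was chosen after seeing the data. Replicate numbers were not used to pair the rats in the main fits.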

Additional observations from a re-analysis of the deposited data

Results flagged for a closer look

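Over 42 sets of 9 or 10 libraries, the 6 genes in 6 kidney groups and Vdr in 6 heart groups, 5 values stood far from the rest of their group by Dixon's test, which chance alone gives in about 1 of 20 groups. In study B vehicle kidneys, replicate 3 was highest for Cyp27b1 (3.07 CPM, next 1.66) and lowest for Slc34a1 (1244 CPM, next 1551). Empagliflozin replicate 5 was highest for Vdr (107.5 CPM, next 59.8), and combination replicate 4, which also held Alb at 266 CPM, was highest for Vdr in its group (61.8 CPM, next 43.7). Lean replicate 8 was lowest for Slc34a1 (1522 CPM, next 2481), and held Actc1 at 2508 CPM, against a kidney median of 1.24. The part of these transcripts in these values was not tested.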

How the results depend on the processing

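No result that passed its threshold changed direction in any setting tried. Of 321 kidney fold changes of the 6 genes under the alternatives, 319 moved by less than the spread between replicates, and the other 2 were Slc34a3 on plate 2 alone, at −1.74 for empagliflozin against vehicle and −0.35 for the combination against empagliflozin. Vdr in heart did not pass on plate 2 alone (0 of the 6 genes called, log2 −1.27, where 49 of 12783 genes were called), and 48 of 49 heart Vdr values kept their side of the threshold. These counts concern size and direction: calls of the 6 genes in kidney were lost under several settings, as given with those calls, and with the replicate block Kl was lost between obese and lean kidneys, Cyp27b1, Slc34a1 and Slc34a3 were lost for empagliflozin, and Kl was gained for the combination against empagliflozin (−0.34 ± 0.12). Counts of pathway genes called by edgeR in kidney depended more on the setting. Between obese and lean kidneys 22 became 4 on plate 2 alone. For BT2, 2 became 7 with DESeq2, 6 with all 6 groups in one fit, 5 without the doubted library, and 1 on either plate alone, with the original run alone or with the replicate number as a block. For empagliflozin, 1 became 4 with DESeq2 and 0 without the plate term, on either plate alone, with all 6 groups in one fit, with the original run alone or with the block. For the combination against vehicle 23 became 13 on plate 1 alone and 9 on plate 2 alone, and against empagliflozin 18 became 7 on plate 2 alone. Plate-only fits use 10 libraries. Other causes were not tested. The correlations were checked 48 times, over r of each of the 15 pairs and the number of pairs passing in each other setting. Of these checks 45 stayed the same, 2 values of r no longer passed and 1 newly passed. Without removing plate means r of Cyp24a1 and Slc34a1 was 0.24 and missed the threshold, and r of Cyp24a1 and Slc34a3 was 0.35 and passed it.

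Same-numbered libraries deviated together with r over 0.1 in 1 of 10 to 4 of 10 pairs per comparison (−0.45 to 0.32). In the combination against empagliflozin, 4 of 10 were most alike to the library of their own number, and in obese against lean 0 of 10. These values were not set against any null, so they cannot decide whether the numbers pair rats. With the replicate block, 4116, 290, 33, 3872 and 4392 of all genes were called in the 5 kidney comparisons, from 4560, 812, 149, 4510 and 4442. Cyp27b1 in kidney, and Vdr in heart, rest on few counts, which limits the precision of both.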
